A study of Mus musculus with 8 samples.

Results

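The Hox genes of mouse enteric neural crest cells were described across 8 libraries from the gut at embryonic day 14.5. Members were all rows of the deposited gene table whose symbol named a gene of the Hox clusters a, b, c or d followed by a paralogue number, which gave 37 of 18561 genes. These cells migrate along the embryonic gut and give rise to its intrinsic neurons and glia. For each library they were sorted with antibodies against CD271 and CD57 from dissociated gastrointestinal tracts, about 200 cells to a tube, and sequenced as amplified full-length cDNA. Of the libraries, 5 carried the label Emb knockdown and 3 the label WT, all of the same embryonic age and sort. The labels give neither the strain nor how Emb, which encodes the membrane glycoprotein embigin, was knocked down, and they do not say whether the libraries came from separate embryos, so the p-values rest on a spread among libraries that may be technical.

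Hox genes encode homeodomain transcription factors that lie in 4 clusters. In each cluster the genes are ordered by paralogue group along the chromosome, and lower-numbered genes are expressed from more anterior levels of the body axis than higher-numbered genes. In the gut, neural crest cells carry the Hox genes of the hindbrain level they leave from, while the surrounding mesenchyme carries Hox genes by its position along the gut, with the highest-numbered groups in the hindgut. Hox proteins bind DNA with Meis and Pbx cofactors, and the clusters are held silent by Polycomb proteins and opened by retinoic acid receptors, Cdx factors and Trithorax proteins.

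Of the 37 genes, 11 lay in cluster a on chromosome 6 (chr6:52155367-52260880), 10 in cluster b on chromosome 11 (chr11:96194316-96368254), 7 in cluster c on chromosome 15 (chr15:102954526-103036856) and 9 in cluster d on chromosome 2 (chr2:74668225-74765142), in coordinates of RefSeq's GRCm38.p6 annotation. Hoxc12 and Hoxc13 were not analysed here. Paralogue groups 1 to 3, called anterior below, held 8 of the genes, groups 4 to 8, called central, held 15, and groups 9 to 13, called posterior, held 14.

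The libraries held between 20116607 and 26959265 counts. Emb itself did not follow the labels. It had 353, 349, 37.2, 21.4 and 21.7 CPM (counts relative to the scaled library size) in the libraries labelled kd 1 to 5, against 16.95, 17.7 and 15.9 CPM in WT 1 to 3. All 5 libraries labelled knockdown lay above WT, with a log2 fold change of 3.21 ± 1.21 (SE; adjusted p = 0.217) over 8 libraries and 0.67 ± 0.26 (adjusted p = 0.0972) over the 6 libraries described next. Both of the libraries labelled kd 1 and 2 stood apart. Markers of leukocytes made up 2.44% and 2.16% of their counts, against 0.167% to 0.288% in those labelled kd 3 to 5 and 0.0525% to 0.0837% in WT. Enteric neural crest and neuron markers made up 0.0170% and 0.0141%, against 0.162% to 0.206% in those labelled kd 3 to 5 and 0.478% to 0.503% in WT, and Sox10, Foxd3 and Tlx2 had 0 counts in the library labelled kd 2. Results are therefore given for all 8 libraries and for 6 libraries, those labelled kd 3 to 5 against WT 1 to 3.

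Hox transcripts were abundant in 6 libraries and nearly absent from the other pair. TPM, a unit scaled by transcript length and by library, summed over the 37 genes to 9.02, 12.4, 381, 439 and 639 in the libraries labelled kd 1 to 5, against 790, 690 and 698 in WT 1 to 3. In TPM all 5 libraries labelled knockdown lay below WT, but summed FPKM put the library labelled kd 5, at 515, above WT 2 and 3, at 466 and 483. As a share of all counts, the Hox genes took 0.00139% and 0.00178% in those labelled kd 1 and 2 and 0.0595% to 0.0955% in those labelled kd 3 to 5, against 0.0894% to 0.113% in WT. The libraries labelled kd 1 to 4 thus lay below every WT library on each of these scales, with 320 and 388 FPKM in those labelled kd 3 and 4. The library labelled kd 5 did so in TPM alone. Those labelled kd 1 and 2 were by far the lowest and held 357 and 475 Hox counts. At 1 TPM or more, taken here as detected, 3, 5, 29, 30 and 26 Hox genes were detected in the libraries labelled kd 1 to 5, against 29, 28 and 31 in WT 1 to 3. Those labelled kd 1 and 2 shared only Hoxa4 and Hoxb4 among their detected genes, and 31 of the 37 were detected in neither. In sorted bulk cells, fewer cells of a type and less RNA per cell cannot be told apart.

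**Figure D1:**
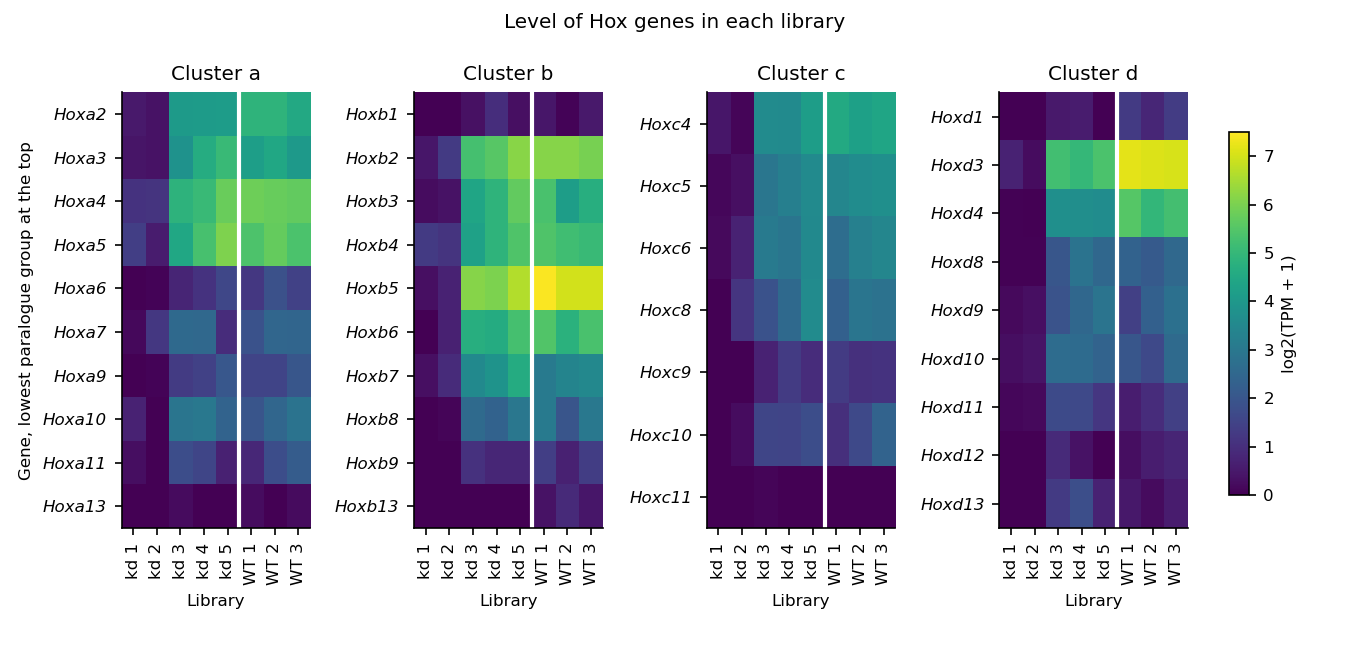
Level of 36 Hox genes, as log2(TPM + 1), in the libraries labelled kd 1 to 5 and in WT 1 to 3, by cluster with the lowest paralogue group at the top. The libraries labelled kd 1 and 2 are dark throughout, and in the other 6 libraries the brightest rows belong to paralogue groups 2 to 6, with Hoxb5 and Hoxd3 brightest in WT at 142 and 137 TPM on average.

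The 13 most abundant Hox genes in WT belonged to paralogue groups 2 to 6, with Hoxb7 at rank 14, while Hoxa6 of the same groups stood at rank 27. The most abundant gene was Hoxb5, a regulator of Ret expression in mouse enteric neural crest. It had 0.230, 0.660, 70.1, 63.3 and 99.0 TPM in the libraries labelled kd 1 to 5, against 173, 126 and 127 TPM in WT 1 to 3. The libraries labelled knockdown all lay below WT in Hoxb5 TPM. Hoxd3, a gene of the anterior part of cluster d that patterns the upper neck vertebrae, had 0.630, 0.180, 36.8, 31.0 and 40.3 TPM in the libraries labelled kd 1 to 5, against 144, 137 and 130 TPM in WT 1 to 3. Hoxd3 was the second in WT and the fifth in the libraries labelled kd 3 to 5, and its groups were well apart.

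The next genes in the WT order were Hoxb2, Hoxa4, Hoxa5, Hoxd4, Hoxb4, Hoxb6, Hoxb3 and Hoxa2. Hoxb2, a hindbrain gene of the anterior group, had 0.370, 1.44, 38.1, 45.6 and 70.2 TPM in the libraries labelled kd 1 to 5, against 69.7, 69.2 and 61.6 TPM in WT 1 to 3. Hoxa4, whose overexpression in mice enlarges the colon, had 1.13, 1.20, 27.7, 33.2 and 54.0 TPM in the libraries labelled kd 1 to 5, against 56.7, 52.5 and 50.9 TPM in WT 1 to 3. The library labelled kd 5 lay just above the WT range for Hoxb2 and inside it for Hoxa4, and the other 4 labelled knockdown lay below it for both genes. Hoxa5, needed for lung and gut development, had 1.63, 0.490, 21.1, 38.6 and 65.6 TPM in the libraries labelled kd 1 to 5, against 41.6, 51.9 and 40.5 TPM in WT 1 to 3. Hoxd4, a group 4 gene whose neural enhancer responds to retinoic acid, had 0.0400, 0, 12.2, 12.1 and 11.6 TPM in the libraries labelled kd 1 to 5, against 45.0, 30.4 and 36.98 TPM in WT 1 to 3. The Hoxa5 groups overlapped, with the library labelled kd 5 the highest of all 8, while the Hoxd4 groups did not overlap.

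Hoxb4 had 1.44, 1.19, 18.6, 28.1 and 42.5 TPM in the libraries labelled kd 1 to 5, against 42.1, 35.4 and 33.2 TPM in WT 1 to 3. Hoxa2, the selector gene of the second pharyngeal arch, had 0.430, 0.280, 15.85, 16.3 and 16.6 TPM in the libraries labelled kd 1 to 5, against 28.35, 28.3 and 22.1 TPM in WT 1 to 3. The Hoxb4 groups overlapped and the Hoxa2 groups did not, although in scaled counts the Hoxa2 values of the library labelled kd 4 and of WT 3 crossed. Neighbours in this order were mostly not separated by their spread. Of 36 neighbouring pairs in the WT order, 33 had overlapping WT values, and the exceptions were Hoxd3 over Hoxb2, Hoxb2 over Hoxa4, and Hoxa3 over Hoxc5.

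Cluster c was lower. Its leading gene Hoxc4, which is needed for the muscle of the oesophagus in mice, had 0.380, 0.0800, 11.3, 11.04 and 17.15 TPM in the libraries labelled kd 1 to 5, against 22.3, 18.3 and 20.1 TPM in WT 1 to 3. All libraries labelled knockdown lay below WT in Hoxc4. Hoxc5 had 0.10, 0.230, 6.69, 8.38 and 11.15 TPM in the libraries labelled kd 1 to 5, against 9.90, 11.4 and 12.4 TPM in WT 1 to 3. Hoxc6, a gene of the thoracic level of the trunk, had 0.140, 0.630, 7.39, 6.56 and 10.9 TPM in the libraries labelled kd 1 to 5, against 5.37, 8.56 and 9.91 TPM in WT 1 to 3. For Hoxc5 only the library labelled kd 5 lay inside the WT range, and the others labelled knockdown lay below it. For Hoxc6 those labelled kd 3 and 4 lay inside the WT range, kd 5 above it and kd 1 and 2 below it.

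Posterior genes were low in every library. Their sum reached 24.6 to 29.7 TPM in the libraries labelled kd 3 to 5, against 16.1 to 34.1 TPM in WT. Of the 14 posterior genes, 5 stayed under 1 TPM in all 3 WT libraries, namely Hoxa13, Hoxb13, Hoxc11, Hoxd12 and Hoxd13, and the other gene that did so was the anterior gene Hoxb1. In the libraries labelled kd 3 to 5, the genes under 1 TPM throughout were Hoxa13, Hoxb1, Hoxb13, Hoxc11, Hoxd1 and Hoxd12. Hoxb13, a gene of the hindgut and tail end of the body axis, had 0 counts in all 5 libraries labelled knockdown, against 5, 18 and 7 counts in WT 1 to 3. A count of 0 allows up to 0.111 to 0.155 CPM in the libraries labelled knockdown, at 3 counts a library, which covers counting error only.

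As a share of all Hox TPM, the 3 zones shifted by a few percentage points between the groups. Anterior genes made up 33.7% ± 0.391 in the libraries labelled kd 3 to 5 and 38.7% ± 1.57 in WT (SD, n = 3 each), without overlap. Central genes made up 60.4% ± 1.80 in those labelled kd 3 to 5 and 57.9% ± 1.22 in WT, just without overlap. Posterior genes made up 5.89% ± 1.78 in those labelled kd 3 to 5 and 3.33% ± 1.43 in WT, with overlap. Of the 4 clusters, d had the largest difference in share. It made up 14.2% ± 3.14 of Hox TPM in the libraries labelled kd 3 to 5 and 26.04% ± 0.699 in WT, and its sum was 66.2 ± 2.49 TPM in those labelled kd 3 to 5 and 189 ± 10.9 TPM in WT. Cluster a summed to 137 ± 44.1 TPM in the libraries labelled kd 3 to 5 and 162 ± 11.7 TPM in WT. Cluster b summed to 243 ± 77.7 TPM in those labelled kd 3 to 5 and 327 ± 51.8 TPM in WT, and cluster c to 39.6 ± 12.4 TPM in those labelled kd 3 to 5 and 48.7 ± 5.01 TPM in WT. These 3 overlapped between the groups. The anterior, central and cluster d shifts in share depended on Hoxd3. With it left out, chosen after seeing the data, anterior genes made up 28.1% ± 1.71 in the libraries labelled kd 3 to 5 and 24.5% ± 1.505 in WT, and central genes 65.5% ± 1.599 in those labelled kd 3 to 5 and 71.4% ± 0.821 in WT, so both directions turned. Cluster d then made up 7.08% ± 1.96 in those labelled kd 3 to 5 and 8.80% ± 1.21 in WT, with overlap. Posterior genes changed little by this, at 6.40% ± 2.01 in those labelled kd 3 to 5 and 4.11% ± 1.76 in WT, again with overlap. The shares are descriptions over chosen genes and were given no test.

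**Figure D2:**
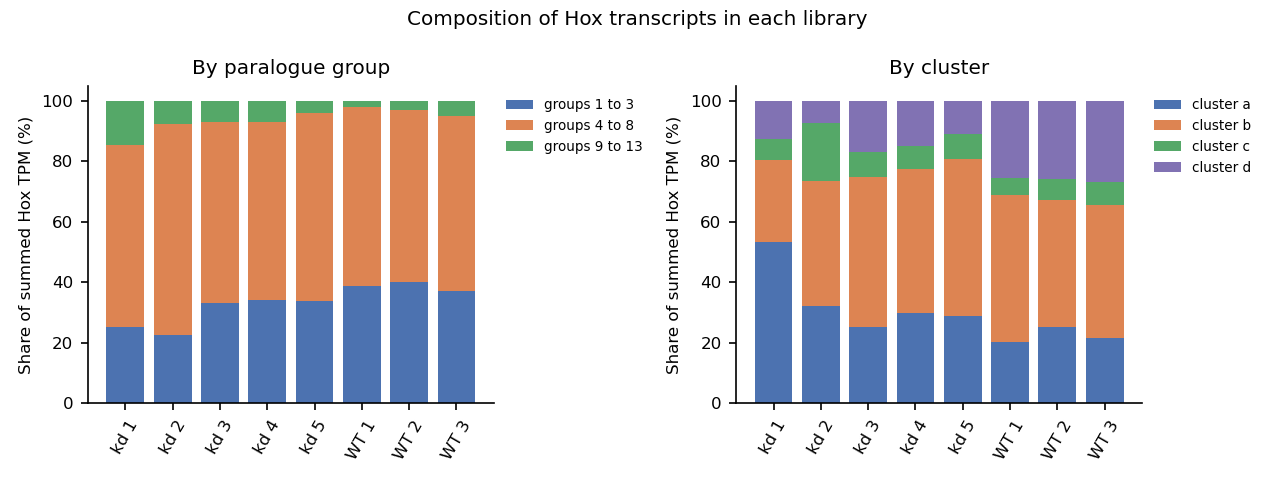
Share of the summed Hox TPM, in percent, taken by paralogue groups 1 to 3, 4 to 8 and 9 to 13 and by clusters a to d, in the libraries labelled kd 1 to 5 and in WT 1 to 3. Cluster d takes 10.8% to 17.01% in the libraries labelled kd 3 to 5 and 25.4% to 26.8% in WT, and the libraries labelled kd 1 and 2 rest on 357 and 475 Hox counts.

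The order of the 37 genes was alike in the 6 libraries. Across genes, Spearman's rho of the TPM profiles was 0.948 to 0.981 among the libraries labelled kd 3 to 5, 0.934 to 0.979 between these and WT, and 0.953 to 0.971 among the WT libraries. The libraries labelled kd 1 and 2 had a rho of 0.537 with each other and of 0.660 to 0.758 with WT. These are descriptions over genes that share a library and its depth, and genes are not independent replicates.

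With all 8 libraries, no Hox gene passed the test. Of 34 Hox genes tested, 0 had a Benjamini-Hochberg adjusted p under 0.05 in edgeR's quasi-likelihood test, and 0 had an unadjusted p under 0.05. Over all 15411 genes tested, 0% were called, and 18.6% had an unadjusted p under 0.05, 12.7% higher and 5.9% lower. DESeq2 called 0 Hox genes and 2220 genes in all, and limma voom called 1 Hox gene, Hoxd3, and 3692 genes in all. Hoxa13, Hoxb13 and Hoxc11 were left out by the filter on low counts. The Hox log2 fold changes, libraries labelled knockdown over WT, had a median of -0.59, against 0.07 over all genes, and 28 were negative and 6 positive. Their standard errors were wide, with a median of 1.29 against 0.51 over all genes. The CPM of all 5 libraries labelled knockdown lay below WT for Hoxc4, Hoxd1, Hoxd3 and Hoxd4, and for no Hox gene above, where 22.7% of all genes tested had groups without overlap, 11.9% below and 10.8% above.

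With 6 libraries, 3 Hox genes passed the test. Hoxd3 and Hoxd4, neighbours in cluster d, fell, and Hoxb7 rose. These were 3 of 34 Hox genes tested, or 8.82%, where 20.4% of all 15115 genes tested were called, 11.1% higher and 9.37% lower, and the difference between these shares was not tested. At an unadjusted p under 0.05 stood 6 Hox genes, where 37.5% of all genes stood, 19.8% higher and 17.7% lower, and these were the 3 called genes with Hoxd11 and Hoxd13 higher and Hoxb5 lower. Groups without overlap were found for 7 Hox genes, 3 above WT (Hoxb7, Hoxd10 and Hoxd13) and 4 below (Hoxc4, Hoxd1, Hoxd3 and Hoxd4), against 43.4% of all genes tested, 20.5% above and 22.8% below. The median log2 fold change of the Hox genes was 0.12 against 0.02 over all genes, with 20 positive and 14 negative, and on the log2(FPKM + 1) and log2(FPKM + 0.1) scales it was -0.03 and -0.08. The number of Hox genes called was 1 without the library labelled kd 4 and 1 without WT 3. The number of all genes called was 5982, 180 and 1663 without the libraries labelled kd 3, 4 and 5, and 1388, 417 and 294 without WT 1, 2 and 3.

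**Figure D3:**
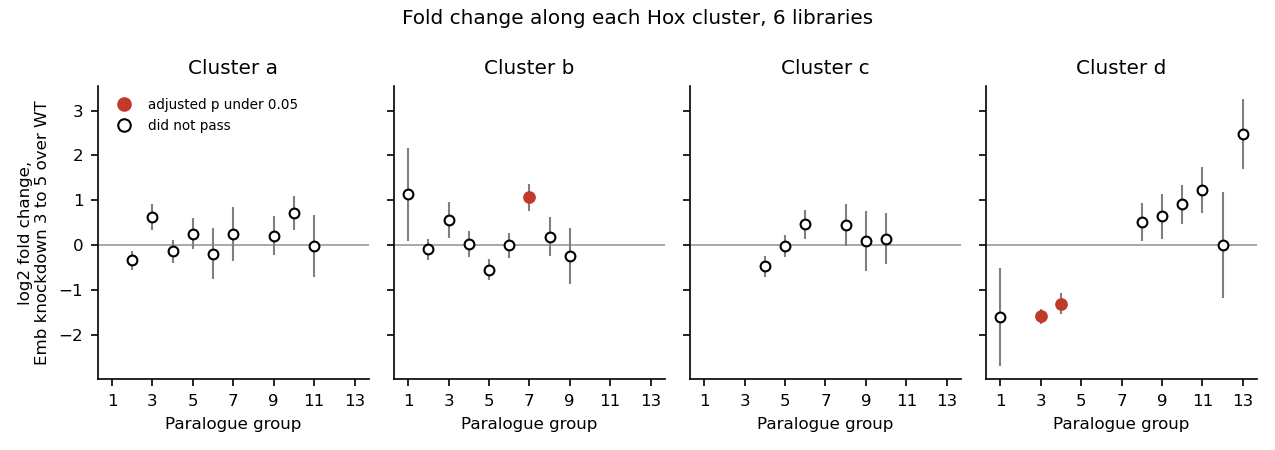
Log2 fold change, libraries labelled kd 3 to 5 over WT 1 to 3, against paralogue group for each cluster, with 1 standard error as the bar, for 33 of the 34 Hox genes tested. Filled points passed an adjusted p of 0.05. In cluster d the values run between -1.60 and 2.47, with Hoxd1, Hoxd3 and Hoxd4 below 0 and Hoxd8 to Hoxd13 at or above it, while the values of clusters a to c lie between -0.54 and 1.13.

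Hoxd3 was the Hox gene whose call did not change under any alternative tried with 6 libraries. Hoxd3 lies at chr2:74711993-74748271 on the plus strand. It had 84.1, 78.2 and 88.6 CPM in the libraries labelled kd 3 to 5, against 286, 232 and 233 CPM in WT 1 to 3. The means were 83.6 ± 5.19 CPM in those labelled kd 3 to 5 and 250.5 ± 30.7 CPM in WT (SD, n = 3 each), with no overlap and little spread. The log2 fold change was -1.58 ± 0.17 (SE; adjusted p = 0.00343 by edgeR). It passed in all 14 alternatives tried, with an adjusted p between 1.44e-16 and 0.0326. With all 8 libraries the log2 fold change was -2.31 ± 1.30 with an adjusted p of 0.391, and over its alternatives the adjusted p ran between 0.0448, in limma voom, and 0.662.

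Hoxd4 lies at chr2:74721978-74729160 on the plus strand, inside the span of Hoxd3. It had 24.3, 26.6 and 22.3 CPM in the libraries labelled kd 3 to 5, against 77.9, 45.1 and 57.8 CPM in WT 1 to 3. The libraries labelled kd 3 to 5 lay close together and all below WT. The log2 fold change was -1.30 ± 0.23 with an adjusted p of 0.0129. Without the library labelled kd 4 the adjusted p was 0.0640 and without WT 3 it was 0.0560, within a range of 1.3e-05 to 0.0640 over its alternatives. Hoxd3 and Hoxd4 overlap in the annotation, GENCODE M21 of the same build. There, 62.3% of the exon bases of Hoxd3 and 52.3% of those of Hoxd4 are shared on the same strand. They are shared with each other or with the read-through gene Gm28230. Antisense genes cover 8.78% of the exon bases of Hoxd3 and 11.8% of those of Hoxd4, counted separately. How the counting divided reads from shared bases is not given in the sources used here, and the reads themselves were not examined. Because of the bases shared on the same strand, the values of the neighbours cannot be taken as independent. The library kit does not mark strand, so antisense reads cannot be told apart from theirs either.

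The start of each gene is shown because Hoxd3 and Hoxd4 fell together while Hoxd13, at the other end of the cluster, had the largest positive value. The windows are RefSeq's, build GRCm38.p6, from 250 bases before to 50 bases after the start, read on the plus strand. They lie at chr2:74711743-74712042 for Hoxd3, chr2:74721728-74722027 for Hoxd4 and chr2:74667975-74668274 for Hoxd13. Capitals mark TGACCT, which is the retinoic acid receptor half-site AGGTCA on the other strand, and the TATA box TATAAA on either strand, whose copies overlap in Hoxd13.
Hoxd3: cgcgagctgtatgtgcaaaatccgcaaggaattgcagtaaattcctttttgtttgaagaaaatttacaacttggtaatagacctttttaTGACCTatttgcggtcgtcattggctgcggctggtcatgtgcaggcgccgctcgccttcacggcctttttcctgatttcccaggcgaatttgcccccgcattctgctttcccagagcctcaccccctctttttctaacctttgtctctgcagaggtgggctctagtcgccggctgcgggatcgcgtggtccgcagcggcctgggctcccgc
Hoxd4: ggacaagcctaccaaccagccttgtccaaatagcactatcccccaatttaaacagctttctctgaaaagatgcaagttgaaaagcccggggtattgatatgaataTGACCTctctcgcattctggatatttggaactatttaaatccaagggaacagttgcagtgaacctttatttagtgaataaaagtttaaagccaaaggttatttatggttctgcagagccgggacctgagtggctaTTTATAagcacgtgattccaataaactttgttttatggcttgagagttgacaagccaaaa
Hoxd13: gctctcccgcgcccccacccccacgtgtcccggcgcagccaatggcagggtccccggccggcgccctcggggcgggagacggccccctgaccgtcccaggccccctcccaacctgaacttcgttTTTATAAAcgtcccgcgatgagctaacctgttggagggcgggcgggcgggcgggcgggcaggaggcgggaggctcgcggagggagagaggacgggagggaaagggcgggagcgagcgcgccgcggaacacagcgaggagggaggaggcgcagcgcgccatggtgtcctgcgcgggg

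RefSeq windows were matched for 22 of the 37 genes, 24 windows in all. On both strands the half-site AGGTCA was present in 7 of the 24 windows, those of Hoxa5, Hoxb4, Hoxc4, Hoxd3, Hoxd4, Hoxd8 and Hoxd10, and in 16.3% of all 32851 windows of the same length. TATAAA was present in 4 windows and in 13.6% of all. The Meis motif TGACAG was present in 2 windows, Hoxa2 and Hoxa3, and in 19.2% of all. The joint Hox and Pbx motif TGATNNAT was present in 4 windows and in 8.85% of all, and the homeodomain core TAATTA in 2 windows, both of Hoxd11, and in 5.29% of all. The half-site thus stood in windows of Hox genes that fell and of Hox genes that did not pass the test, and letters in a window are not a binding site.

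Cluster d also carries a microRNA gene. Mir10b lies within the spans of Hoxd3 and Hoxd4, and its relative Mir10a lies within the span of Hoxb3 in cluster b. The mature forms are shown because Mir10b lies in the region of the genes that fell and Mir10a in that of Hoxb3, which did not pass the test, with RefSeq sequence and the seed, bases 2 to 8, in capitals. They share that seed and lie at chr2:74726074-74726096 and chr11:96317186-96317208, both on the plus strand. MicroRNAs were not measured here.
mmu-miR-10b-5p: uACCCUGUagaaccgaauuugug
mmu-miR-10a-5p: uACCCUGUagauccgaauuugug

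The lowest-numbered gene of cluster d was low and noisy. Hoxd1, which acts in nociceptive sensory neurons in mice, had 0, 0, 0.430, 0.490 and 0 TPM in the libraries labelled kd 1 to 5, against 1.44, 0.740 and 1.53 TPM in WT 1 to 3. It lay below WT in all 5 libraries labelled knockdown. Its log2 fold change of -1.60 ± 1.09 was the lowest of any Hox gene with 6 libraries and did not pass (adjusted p = 0.313). With 8 libraries it was also the lowest, at -2.32 ± 1.51 (adjusted p = 0.457).

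Genes at the posterior end of cluster d had positive log2 fold changes and did not pass the test. Hoxd13, which patterns the digits, the hindgut end and the genital tubercle, had 0, 0, 1.41, 2.46 and 0.650 TPM in the libraries labelled kd 1 to 5, against 0.410, 0.160 and 0.480 TPM in WT 1 to 3. The libraries labelled kd 3 to 5 lay above WT and those labelled kd 1 and 2 had no count. In CPM the means were 3.18 ± 2.12 in the libraries labelled kd 3 to 5 and 0.571 ± 0.283 in WT (SD, n = 3 each), on 25 to 107 counts in those labelled kd 3 to 5 and 7 to 19 in WT. The log2 fold change was 2.47 ± 0.78, the largest of any Hox gene, with an adjusted p of 0.0536. It passed with DESeq2 (0.00998), with limma voom (0.00721) and without the library labelled kd 5 (0.0428), within a range of 0.00721 to 0.209 over its alternatives. Hoxd11 and Hoxd10, expressed in the limbs and lower trunk, had log2 fold changes of 1.23 ± 0.52 (adjusted p = 0.119) and 0.91 ± 0.43 (adjusted p = 0.159). Hoxd9, Hoxd8 and Hoxd12 had 0.65 ± 0.50, 0.52 ± 0.42 and 0.01 ± 1.18, and none passed.

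Hoxd8, the third gene of the cluster by WT level, had 0.0300, 0.0300, 3.01, 6.26 and 4.64 TPM in the libraries labelled kd 1 to 5, against 4.13, 3.35 and 4.83 TPM in WT 1 to 3, with overlap. Within cluster d, 2 of 9 genes tested, or 22.2%, were called lower and 0 higher, where 20.4% of all genes tested were called, 9.37% lower and 11.1% higher. The difference between these shares was not tested. The median log2 fold change in cluster d was 0.52, with 6 positive. Without a composition factor the number of positive values was 5.

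In cluster b, Hoxb7 was the gene that rose. Hoxb7 is a central gene of the trunk at chr11:96285604-96290163 on the plus strand, and no other gene shares its exon bases. It had 0.230, 0.910, 10.8, 13.5 and 23.55 TPM in the libraries labelled kd 1 to 5, against 7.29, 9.52 and 10.2 TPM in WT 1 to 3. The libraries labelled kd 3 to 5 lay above WT, and those labelled kd 1 and 2 below it. In CPM it had 11.4, 15.2 and 21.1 in those labelled kd 3 to 5, against 6.52, 7.56 and 8.70 in WT 1 to 3. The log2 fold change was 1.07 ± 0.31 with an adjusted p of 0.0420. The call was lost without a composition factor (0.0544), without the library labelled kd 4 (0.120) or 5 (0.103) and without WT 1 (0.124), 2 (0.134) or 3 (0.111), within a range of 0.00806 to 0.134, while the log2 fold change stayed between 0.81 and 1.24. With 8 libraries it was 0.37 ± 1.15 (adjusted p = 0.900) and turned negative on the FPKM scales, with the replicate block and without the library labelled kd 5.

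Hoxb5, the most abundant Hox gene, had a log2 fold change of -0.54 ± 0.23 and did not pass (adjusted p = 0.123). Its means were 112 ± 21.2 CPM in the libraries labelled kd 3 to 5 and 164 ± 44.9 CPM in WT (SD, n = 3 each), with overlap in CPM. limma voom called it (0.0415), within a range of 0.0415 to 0.379 over its alternatives. The other genes of cluster b did not pass. Hoxb2, Hoxb4 and Hoxb6 had log2 fold changes of -0.09 ± 0.23, 0.03 ± 0.29 and -0.00 ± 0.28. Hoxb3 and Hoxb8 had 0.57 ± 0.40 and 0.19 ± 0.43. Hoxb9 had -0.24 ± 0.62, and Hoxb1, which marks a single hindbrain segment, had 1.13 ± 1.04 on 7 to 33 counts in the libraries labelled kd 3 to 5 and 2 to 13 in WT. Antisense genes cover 52.9% of the exon bases of Hoxb3 and 27.3% of those of Hoxb2, so their reads cannot be told apart from antisense reads.

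**Figure D4:**
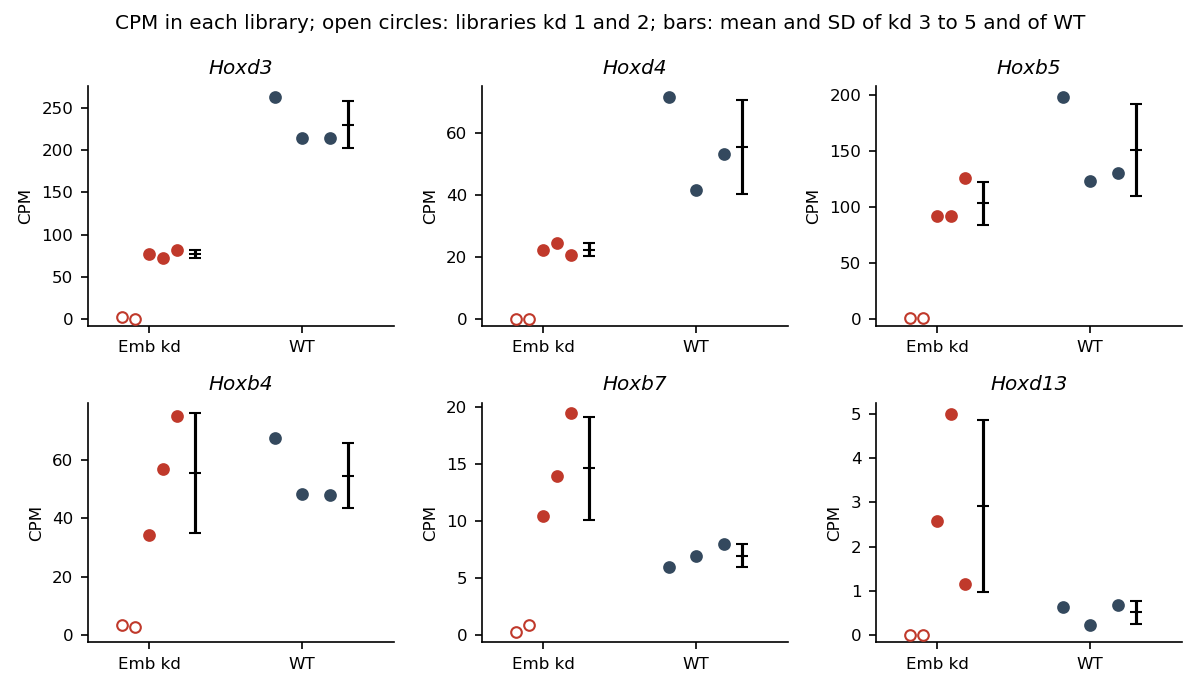
CPM of 6 Hox genes in each library, on library sizes scaled over 8 libraries, with the libraries labelled knockdown left and WT right. Open circles are the libraries labelled kd 1 and 2, and bars give the mean and SD of those labelled kd 3 to 5 and of WT. Hoxd3 and Hoxd4 are separated without overlap, Hoxb7 and Hoxd13 are higher in the libraries labelled kd 3 to 5, and Hoxb4 and Hoxb5 overlap between those libraries and WT.

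In cluster a, 0 of 10 genes tested were called, where 20.4% of all genes tested were called. The log2 fold changes lay between -0.34, in Hoxa2, and 0.72, in Hoxa10, with 5 positive. Hoxa4 and Hoxa5 had -0.13 ± 0.25 and 0.26 ± 0.34. Hoxa3, which is needed for the thymus and parathyroids, had 0.350, 0.290, 13.2, 23.8 and 33.0 TPM in the libraries labelled kd 1 to 5, against 17.4, 21.1 and 15.8 TPM in WT 1 to 3. Its groups overlapped, and its log2 fold change of 0.63 ± 0.29 did not pass (adjusted p = 0.141), although it passed with limma voom (0.00948) and without the library labelled kd 3 (0.00578), within a range of 0.00578 to 0.370. Hoxa6, Hoxa7, Hoxa9 and Hoxa11 had log2 fold changes between -0.18 and 0.26, and none passed.

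In cluster c, 0 of 6 genes tested were called, where 20.4% of all genes tested were called. Hoxc4 had the lowest log2 fold change, -0.47 ± 0.23 (adjusted p = 0.171), with all 3 libraries labelled kd 3 to 5 below WT. Hoxc5 and Hoxc6 had -0.01 ± 0.24 and 0.47 ± 0.33. Hoxc8, Hoxc9 and Hoxc10 had 0.45 ± 0.46, 0.10 ± 0.66 and 0.15 ± 0.57. Hoxc11 had 0 counts in 7 libraries and 1 count in the library labelled kd 3.

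By zone, 1 anterior gene fell of 8 tested, 1 central gene rose and 1 fell of 15, and 0 posterior genes were called of 11, where 20.4% of all genes tested were called. The median log2 fold change was -0.21 for anterior, 0.03 for central and 0.21 for posterior genes. Of the posterior genes 9 of 11 were positive, against 8 of 11 without a composition factor and 7 of 12 on the log2(FPKM + 1) scale. The central median was -0.05 without a composition factor.

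Cell type markers differed between the libraries labelled kd 3 to 5 and WT, some lists lower and others higher. Over all genes tested with 6 libraries, 11.1% were called higher and 9.37% lower, and the marker counts were not tested against these shares. Enteric neural crest and neuron markers were called lower for 11 of 17 genes tested and higher for 0, and their median was -1.16 on the log2 scale. With a library left out, 6 to 11 were called lower. Sox10 and Ednrb, genes of neural crest progenitors and glia, had -1.90 ± 0.16 and -1.70 ± 0.18, each with an adjusted p of 0.00343. The summed level of the 17 markers was 1010, 780 and 1189 TPM in the libraries labelled kd 3 to 5, against 2834, 2811 and 2839 TPM in WT 1 to 3. Leukocyte markers were called higher for 14 of 18, led by Aif1, Ptprc and Fcer1g, and gut mesenchyme markers for 9 of 16, led by Col1a2, Pdgfra and Foxf2. Mesenchyme markers summed to 2549 to 3560 TPM in the libraries labelled kd 3 to 5, against 1916 to 2798 TPM in WT, so WT libraries held them as well. Endothelium markers, led by Tie1, Cdh5 and Pecam1, were called lower for 8 of 10. With a library left out, 8 to 17 leukocyte markers and 1 to 9 mesenchyme markers were called higher, and 3 to 9 endothelium markers lower. Gut epithelium markers were called for 0 of 9, and Epcam, with the smallest p, did not pass (adjusted p = 0.136). The part of these shifts in the Hox values was not tested.

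Hoxd3 and Hoxd4 were also set against Sox10 within each library. The ratio of Hoxd3 TPM to Sox10 TPM was 0.860 to 1.10 in the libraries labelled kd 3 to 5, against 0.726 to 0.871 in WT, with overlap. The ratio of Hoxd4 to Sox10 was 0.318 to 0.350 in those labelled kd 3 to 5, against 0.161 to 0.272 in WT, and lay above WT, as did that of Hoxb7, at 0.309 to 0.645 in those labelled kd 3 to 5 and 0.0441 to 0.0641 in WT. Of the 37 Hox ratios to Sox10, 29 lay above WT, 1 below and 7 overlapped. With Sox10 itself lower, such a ratio rises for any gene that fell less than Sox10 did. The share over all genes was not counted, so this count does not mark out the Hox genes. These ratios are descriptions without a test.

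**Figure D5:**
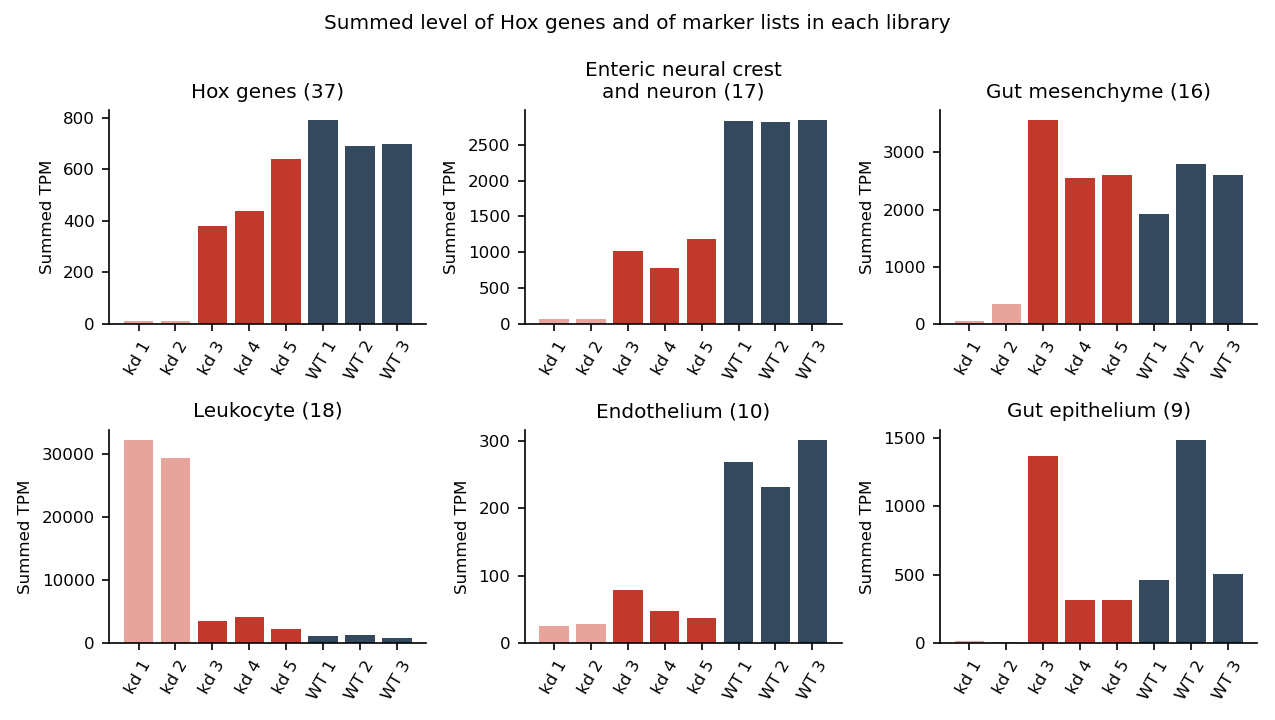
Summed TPM of the 37 Hox genes and of 5 lists of cell type markers in each library, libraries labelled kd 1 to 5 left (kd 1 and 2 pale) and WT 1 to 3 right. The Hox sum is 9.02 and 12.4 TPM in the pale bars, where the leukocyte sum is 32306 and 29368 TPM, and the neural crest sum of the libraries labelled kd 3 to 5 is 780 to 1189 TPM against 2811 to 2839 TPM in WT.

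Genes that work with or upstream of the Hox clusters were counted in the same comparison of 6 libraries, in which 20.4% of all genes tested were called, 11.1% higher and 9.37% lower. Their counts were not tested against these shares. Of 9 Meis, Pbx and Prep cofactors, 3 rose and 1 fell. Meis2 had 195, 190 and 195 CPM in the libraries labelled kd 3 to 5, against 86.5, 91.04 and 111.8 CPM in WT 1 to 3, a log2 fold change of 1.00 ± 0.17 (adjusted p = 0.0104). Pbx2 rose by 1.64 ± 0.33 (adjusted p = 0.0158), and Meis3 fell by 0.73 ± 0.16 on the log2 scale (adjusted p = 0.0204). Without the library labelled kd 4 and without WT 2, 0 of the 9 cofactors passed. Without WT 3 only Meis2 passed, and without WT 1 only Meis2 and Pbx2.

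Of 16 upstream axial regulators tested, 3 rose and 2 fell, against 11.1% and 9.37% of all genes. Rara, a retinoic acid receptor, had 71.6, 70.9 and 64.4 CPM in the libraries labelled kd 3 to 5, against 162, 179 and 146 CPM in WT 1 to 3, without overlap. Its log2 fold change was -1.24 ± 0.16 (adjusted p = 0.00521), and it passed with each library left out. Rxrb, a partner of retinoic acid receptors, fell by 0.91 ± 0.18 on the log2 scale (adjusted p = 0.0144). Aldh1a1, an enzyme of retinoic acid synthesis, rose by 1.61 ± 0.28 (adjusted p = 0.0118). Without the library labelled kd 4 and without WT 3, Rara alone passed, without WT 2 Rara and Aldh1a1, and without WT 1 Rara, Rxrb and Aldh1a1.

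Of 18 Polycomb genes, 1 rose and 2 fell, against 20.4% of all genes called, and on both FPKM scales 0 rose, Suz12 included, and 3 fell. Cbx2, a subunit that silences Hox genes, had 31.4, 18.1 and 15.1 CPM in the libraries labelled kd 3 to 5, against 55.7, 70.3 and 59.7 CPM in WT 1 to 3, a log2 fold change of -1.52 ± 0.28 (adjusted p = 0.0137). Phc2 fell by 0.82 ± 0.17 on the log2 scale (adjusted p = 0.0167) and Suz12 rose by 1.36 ± 0.35 (adjusted p = 0.0297). Of 11 Trithorax genes and H3K27 demethylases, 5 rose and 2 fell, against 11.1% and 9.37% of all genes, and on both FPKM scales 2 rose and 2 fell, without Kmt2c. The methyltransferase genes Kmt2c, Kmt2a and Kmt2d rose by 0.98 ± 0.23, 1.36 ± 0.34 and 1.10 ± 0.28 on the log2 scale (adjusted p = 0.0238, 0.0275 and 0.0287), and Ash2l fell by 0.70 ± 0.17 (adjusted p = 0.0261). Without the library labelled kd 3, 2 Polycomb genes were called higher and 6 lower, and 7 Trithorax genes higher and 2 lower. Of both lists, 0 genes were called without the library labelled kd 4, without WT 2 or without WT 3, and 0 Trithorax genes without the library labelled kd 5.

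Among 15 other homeobox genes of the gut wall, 5 rose and 2 fell, against 11.1% and 9.37% of all genes. Dlx1 and Dlx2, homeobox genes of the neural crest and forebrain, fell by 1.51 ± 0.18 and 1.35 ± 0.19 on the log2 scale (adjusted p = 0.00416 and 0.00630), and both passed with each library left out. Tshz2 rose by 1.80 ± 0.33 (adjusted p = 0.0136) and Prrx1, which is also on the mesenchyme list, by 2.01 ± 0.42 (adjusted p = 0.0176). Neither passed without the library labelled kd 4, without WT 2 or without WT 3. With 8 libraries, edgeR called 0 genes of any of these lists.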

How the data were processed

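RNA was measured in 8 libraries of about 200 sorted cells each, grouped by their labels. The deposited table gives expected counts, FPKM, TPM and normalised counts (a scaled signal) per gene and library, made by the authors. Reads were handled with HISAT and Bowtie2 against GRCm38.p6, per the submitters' processing notes. The counting tool, its strand setting and the tool versions are not given in the sources used here. Between 17.6% and 19.8% of the expected counts were not whole, and all were rounded.

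Library sizes were scaled by TMM after a filter on low counts (filterByExpr), and edgeR 4.0.16 in R 4.3.3 fitted its robust quasi-likelihood test over all genes, libraries labelled knockdown over WT, with Benjamini-Hochberg adjusted p under 0.05 as the threshold. DESeq2 1.42.0 and limma 3.58.1 were alternatives, and limma on FPKM used pseudocounts of 1 and 0.1. CPM served for differences and TPM for levels between genes. The script was tested on simulated data with known changes of 2, 4 and 32 fold. With 8 libraries it recovered 0 of 66, 8 of 64 and 32 of 58 of these. With 6 libraries it recovered 14 of 67, 57 of 66 and 65 of 65. A gene that did not pass, above all with 8 libraries, is therefore not shown to be unchanged. Every Hox row was accounted for. Per-library values were given for the 3 Hox genes of each cluster highest in WT, the Hox genes past the threshold and those with the largest log2 fold change in each direction, and values of Hoxa3 and Hoxb13 were chosen after they were seen. From each other list up to 4 genes past the threshold were named, and up to 3 markers. The Hox genes and the lists were chosen with earlier results of these data known, and so was the set of 6 libraries. The deposited normalised counts were not used in a test. Some genes are not reported here by name, although counts and sums include them.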

Additional observations from a re-analysis of the deposited data

Results flagged for a closer look

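Among the libraries labelled kd 1 to 5, 44 groups of values were tested for a library far from the other 4. In 5 groups the gap was more than 0.71 of the range. Chance flags about 1 in 20 for normal values in independent groups. Values that are mostly 0 and shares of the same sum are not of that kind, so no excess can be read from the 5 flags. For Hoxa13 the far library was the one labelled kd 3, at 0.148 CPM, on 4 counts. For Hoxc11 it was the same library, at 0.037 CPM, on 1 count. The other 4 had none of either gene. Hoxb1 reached 1.54 CPM in the library labelled kd 4. Cluster a made up 53.2% of Hox TPM in the library labelled kd 1 and cluster c made up 19.1% in the library labelled kd 2, the libraries with 357 and 475 Hox counts.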

How the results depend on the processing

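With 8 libraries, DESeq2 called 2220 genes, limma voom 3692 with 1 Hox gene, and leaving out a library 0 to 2 genes. Between same-numbered libraries, deviations from the group means had r of -0.027, 0.040 and -0.045. These deviations carry the gap between the libraries labelled kd 1 and 2 and the others labelled knockdown. They therefore cannot show whether the replicate numbers pair the libraries. The replicate block called 0 genes and 0 Hox genes and gave a median Hox log2 fold change of -3.58, with -2.38 for Hoxb7 and -2.40 for Hoxd13. WT has no library numbered 4 or 5, so these values rest on the libraries labelled kd 1 to 3 against WT 1 to 3. Those labelled kd 1 and 2, which held few Hox counts, thus weigh more in the block than in the main fit. No paired analysis was possible with 6 libraries because they share only number 3. With a library left out, the Hox median was -0.92 to -0.27. Hoxb7 was -0.39 and -0.89 on the log2(FPKM + 1) and log2(FPKM + 0.1) scales, and -0.11 to 0.68 with a library left out.

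With 6 libraries, limma voom called 6900 genes and 7 Hox genes, DESeq2 4538 and 4 Hox genes, and leaving out a library 180 to 5982 genes and 1 to 4 Hox genes. Without a composition factor 2 Hox genes were called. Higher against lower calls were 1673 and 1417 by TMM, 1445 and 1735 without a composition factor, and 1168 and 1850 or 1187 and 1815 on the FPKM scales. Hoxb4 was -0.05 without a composition factor and -0.11 and -0.12 on the FPKM scales. Hoxc5 was 0.01 with a mean of at least 50 counts. With a library left out, Hoxb4 ran between -0.26 and 0.26, Hoxa4 between -0.40 and 0.05, Hoxa5 between -0.15 and 0.57, Hoxb2 between -0.31 and 0.06 and Hoxc5 between -0.17 and 0.14. The cause was not tested. The median of all genes with 8 libraries was 0.07, against -0.17 without a composition factor and -0.20 and -0.34 on the FPKM scales. Low counts limit Hoxd1, Hoxd12, Hoxd13 and Hoxb1. With Hoxd3 left out of the sum, chosen after seeing the data, anterior, central and cluster d shares were 28.1%, 65.5% and 7.08% in the libraries labelled kd 3 to 5, against 24.5%, 71.4% and 8.80% in WT.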
